A study of Mus musculus with 4 samples.

Results

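The BCL2 family genes described here are 10 genes that set whether a cell starts apoptosis through its mitochondria. They are the rows of the deposited table whose symbol is Bcl2, Bcl2l1, Mcl1, Bcl2a1b, Bcl2a1d, Bax, Bak1, Bid, Bcl2l11 or Bbc3. Each symbol had 1 row, so there are 10 rows of 62046 in all. RNA was sequenced from macrophage cultures that had been grown for 5 days with M-CSF, the growth factor that macrophages need to form and survive, from the marrow of wild-type mice (2 libraries) and of GM1082 KO mice (2 libraries). The labels used here name no strain, sex or age, and leave unsaid how the deletion was made and if replicates stem from separate animals. The p-values below therefore measure only the spread between these libraries, which may be technical.

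Proteins of this family meet at the outer membrane of mitochondria. Pro-survival members (BCL2, BCL-XL from Bcl2l1, MCL1 and the A1 proteins from the Bcl2a1 genes) hold the effectors BAX and BAK in check. BH3-only proteins, such as BID, BIM from Bcl2l11 and PUMA from Bbc3, bind the pro-survival proteins or the effectors, and once the effectors are free they open the membrane, cytochrome c leaves and caspases are activated. In macrophages and neutrophils MCL1 and A1 are known as survival proteins with a short life, and M-CSF is known to keep macrophages alive in culture. Transcript levels are only 1 layer of this control, since many of these proteins are regulated by stability, cleavage or phosphorylation.

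Values are FPKM, fragments scaled to the length of the gene and the depth of the library, so levels of different genes can be set side by side. For a row of 1 kb, the fragments behind 1 FPKM numbered 19.1 in each wild-type library, 17.7 in knockout replicate 1 and 18.2 in knockout replicate 2. The targeted gene was read from the row at the position of Arhgap33os, for which RefSeq lists Gm1082 as a synonym (chromosome 7, 30515122 to 30522193). Its level was 0.0792 and 0.0198 FPKM in the wild-type pair against 0.0639 and 0.0624 FPKM in the knockout, so this row lies under the level at which a loss could be seen at this depth, and it does not serve to check the genotype labels. Macrophage genes were present in all 4 libraries, with the M-CSF receptor gene Csf1r at 121 and 117 FPKM in wild-type libraries against 104 and 113 FPKM in the knockout. The cultures also held transcripts of other marrow cells. The 16 neutrophil markers summed to 18399 and 17191 FPKM in the wild-type pair against 22718.5 and 19443 FPKM in knockout replicates 1 and 2, of which S100a8 and S100a9 made up most, and all 16 were highest in knockout replicate 1. In bulk RNA, fewer cells of a type and less RNA per cell cannot be told apart.

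Across the 4 libraries the 10 genes covered a wide range of levels in an order that changed little from library to library. Mcl1 was highest in each library and Bcl2a1d second in each, while Bid, Bcl2l11, Bbc3 and Bcl2 took ranks 7, 8, 9 and 10 in every library. Mean levels over the 4 libraries were 249 FPKM for Mcl1, 118 for Bcl2a1d, 36.1 for Bak1, 31.7 for Bcl2a1b, 23.6 for Bcl2l1, 20.9 for Bax, 14.0 for Bid, 10.2 for Bcl2l11, 6.25 for Bbc3 and 2.66 for Bcl2. Neighbours in this order whose ranges over the libraries overlapped were Bak1 and Bcl2a1b, Bcl2a1b and Bcl2l1, and Bcl2l1 and Bax. All other neighbours were apart in every library. Within each library Mcl1 stood 104 and 85.5 times as high as Bcl2 in wild type and 111 and 78.0 times as high in the knockout.

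**Figure D1:**
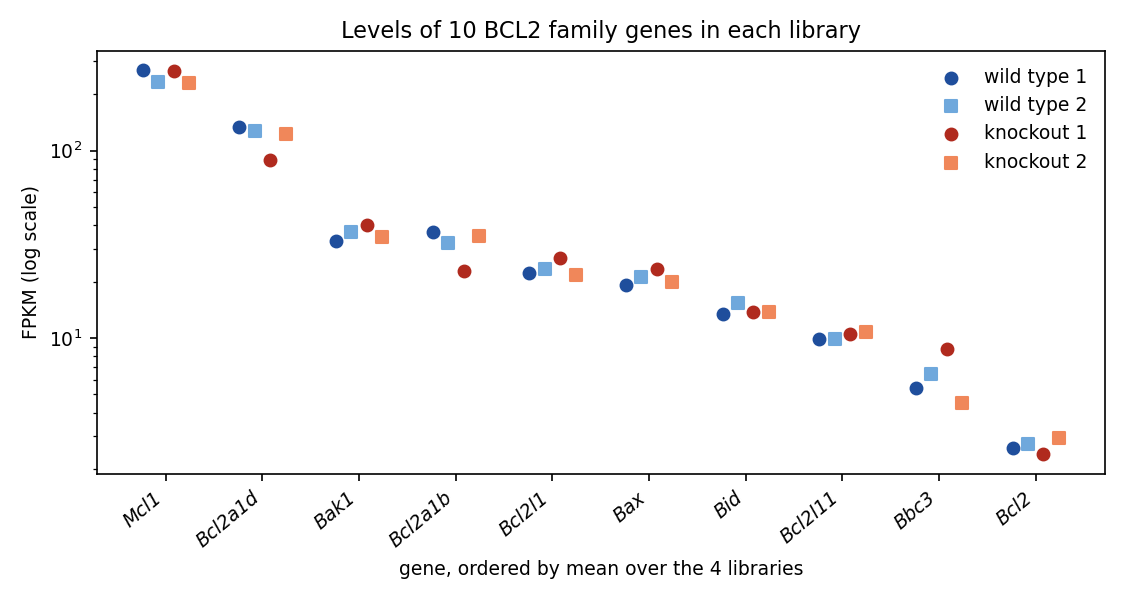
FPKM on a log scale (y axis) of the 10 BCL2 family genes (x axis, ordered by mean), with 1 point per library, blue for wild type and red or orange for the knockout. Levels run from 249 FPKM for Mcl1 to 2.66 FPKM for Bcl2 on average, and knockout replicate 1 is the lowest of the 4 for Bcl2a1d and Bcl2a1b and the highest for Bbc3.

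Between the genotypes, 0 of the 10 genes passed limma's test at an adjusted p of 0.05 (adjusted p = 1 for each), and 0 had an unadjusted p below 0.05. Over all 24535 rows tested, 3 passed (0.0122%) and 1314 had an unadjusted p below 0.05 (5.36%). The libraries of the 2 genotypes did not overlap for 2 of the 10 genes, higher in the knockout for Bcl2l11 and lower for Bcl2a1d. Of all tested rows, 30.9% showed no overlap between the genotypes, 13.2% on the higher and 17.7% on the lower side, so the count among the 10 genes was not above the background. Of the 10 genes 5 had a higher and 5 a lower fitted level in the knockout, and their median log2 change was 0.037, against -0.010 over all rows tested. The median of the 10 genes ran from -0.031 (without knockout replicate 1) to 0.084 (without knockout replicate 2) when a library was left out, so its sign rested on single libraries. The median size of the change, regardless of its sign, was 0.090 on the log2 scale for the 10 genes and 0.11 for all rows. All changes are given on the scale of log2(FPKM + 1), with wild type subtracted from knockout, and this scale understates changes of low genes.

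Limma's intervals give a range for the size of a difference between these libraries. Like the p-values, they measure only the spread between libraries, which may be technical, and do not bound a difference between mice. The 95% intervals from limma, put back as a ratio of FPKM + 1 in the knockout to wild type, ran from 0.883 to 1.29 for Bcl2l11, the narrowest, and from 0.669 to 1.68 for Bbc3, the widest. The lowest bound of any of the 10 genes was 0.576 (Bcl2a1b) and the highest that of Bbc3. These intervals are not adjusted for the number of genes and rest on 2 libraries a genotype.

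**Figure D2:**
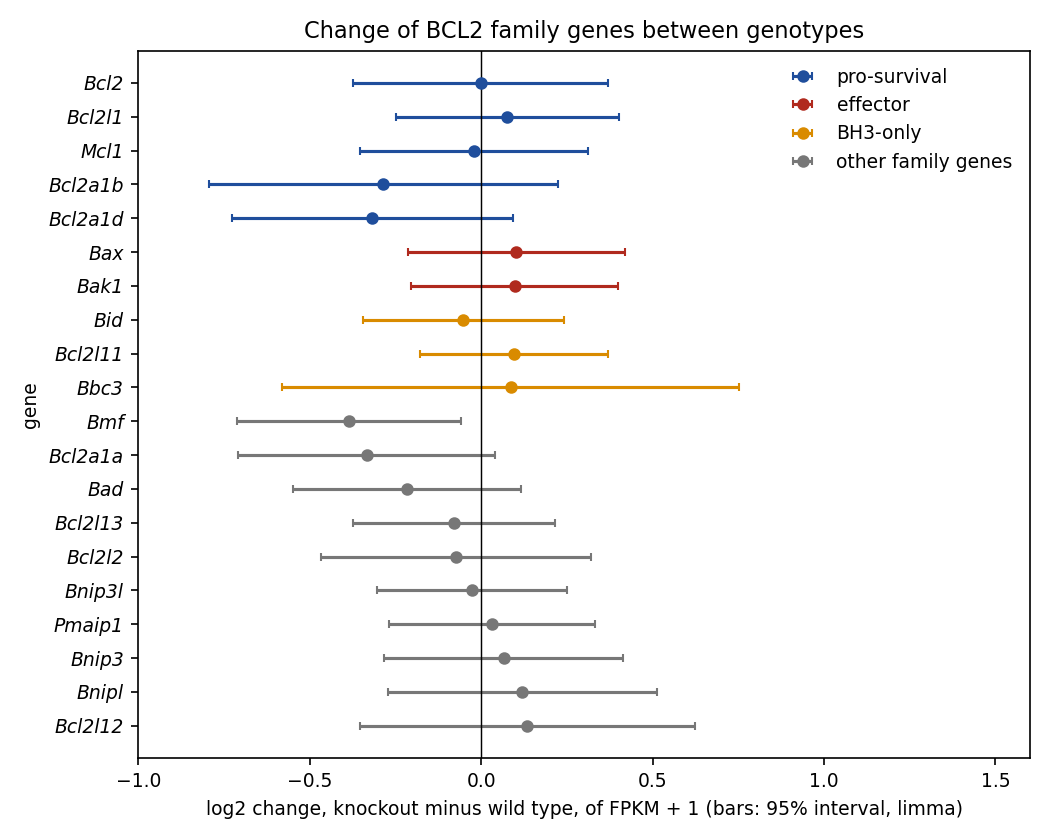
Log2 change of FPKM + 1, knockout minus wild type (x axis), with the 95% interval from limma, for the 10 genes by class and for the 10 other BCL2 family genes that were tested (grey). Every interval of the 10 genes includes 0, and among the others only that of Bmf, from -0.71 to -0.060, does not, before any adjustment for the number of rows.

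Mcl1 (ENSMUSG00000038612, chromosome 3, 95658788 to 95663176, plus strand) carried 55.7% to 65.3% of the summed level of Mcl1, Bcl2a1b, Bcl2a1d, Bcl2l1 and Bcl2. This sum leaves out the pro-survival genes Bcl2a1a and Bcl2l2, so the share is not that of all pro-survival RNA. Bcl2a1a, Bcl2a1b and Bcl2a1d together stood at 259 and 241 FPKM in wild-type libraries against 170 and 235 FPKM in the knockout. Their sum was above Mcl1 in replicate 2 of each genotype and below it in replicate 1. Mcl1 stood at 269 and 233 FPKM in the wild-type pair (replicate 1 first) against 266 and 229 FPKM in the knockout pair. The spread within each genotype was thus larger than the distance between the genotype means (251 ± 25.4 and 247 ± 25.9 FPKM, SD, n = 2 each), and the groups overlapped. The log2 change was -0.021 (SE 0.14), with an interval from 0.782 to 1.24 as a ratio. In both genotypes the library numbered 1 was the higher, and the labels do not say that a number marks a shared culture or day.

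Bcl2l1, the gene of BCL-XL (ENSMUSG00000007659, chromosome 2, 152780668 to 152831728, minus strand), was at 22.3 and 23.4 FPKM in wild-type libraries against 26.8 and 21.8 FPKM in the knockout. The knockout libraries lay on either side of the wild-type ones, and the log2 change was 0.076 (SE 0.13). Bcl2, the founding gene of the family (ENSMUSG00000057329, chromosome 1, 106538178 to 106714274, minus strand), was at 2.59 and 2.72 FPKM in the wild-type pair against 2.39 and 2.94 FPKM in the knockout. Again the knockout libraries enclosed the wild-type ones, with means of 2.66 ± 0.0918 and 2.66 ± 0.386 FPKM and a log2 change of -0.0019 (SE 0.15).

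The Bcl2a1 genes encode A1, a pro-survival protein of blood cells that mice carry in several near-identical copies. The libraries held Bcl2a1d (ENSMUSG00000099974, chromosome 9, 88723285 to 88731914, minus strand), Bcl2a1a (ENSMUSG00000102037, 88956900 to 88962419, plus strand, not among the 10 genes but a copy of them) and Bcl2a1b (ENSMUSG00000089929, 89199209 to 89207827, plus strand) within 484.5 kb. The bases before their annotated starts are shown because the 3 copies resemble each other there. A link between these bases and the levels was not tested. RefSeq's starts differ from those of the deposited rows and lie a little inside the spans given above, so the windows reach into these spans. The 250 bases before each RefSeq start (GRCm38.p6) are given 5′ to 3′ along the gene, from chr9:88731851-88732100 (minus strand), chr9:88956670-88956919 (plus strand) and chr9:89199023-89199272 (plus strand), and capitals mark a GAGGAAGT motif, an ETS site of the kind bound by the myeloid factor PU.1.
Bcl2a1d: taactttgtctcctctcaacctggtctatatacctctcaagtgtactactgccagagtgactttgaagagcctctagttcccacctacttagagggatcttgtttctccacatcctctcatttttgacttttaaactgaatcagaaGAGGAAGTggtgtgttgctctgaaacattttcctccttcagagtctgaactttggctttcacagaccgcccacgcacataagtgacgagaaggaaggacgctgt
Bcl2a1a: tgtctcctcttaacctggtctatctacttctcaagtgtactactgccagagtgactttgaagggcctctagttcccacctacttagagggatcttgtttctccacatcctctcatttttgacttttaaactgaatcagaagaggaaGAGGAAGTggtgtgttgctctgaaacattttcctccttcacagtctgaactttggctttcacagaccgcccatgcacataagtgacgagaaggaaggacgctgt
Bcl2a1b: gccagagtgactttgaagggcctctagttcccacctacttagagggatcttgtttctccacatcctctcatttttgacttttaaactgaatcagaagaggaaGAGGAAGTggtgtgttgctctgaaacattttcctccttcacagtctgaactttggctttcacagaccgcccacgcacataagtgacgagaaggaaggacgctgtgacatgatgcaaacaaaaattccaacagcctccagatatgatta

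Over the bases that could be aligned, Bcl2a1a and Bcl2a1b were identical at 205 of 206 positions and Bcl2a1b and Bcl2a1d at 198 of 200, with a gap of 6 bases. Bcl2a1a and Bcl2a1d were identical at 238 of 244, also with a gap of 6 bases. The GAGGAAGT motif, searched on both strands, starts 104 bases before the RefSeq start of Bcl2a1d and of Bcl2a1a and 148 bases before that of Bcl2a1b, whose start RefSeq places further downstream in the shared stretch. It was in 2.44% of the 32851 promoter windows of the same length in the RefSeq table. Of the other genes only Bak1 had it, 22 bases before its start on the opposite strand. Each of the 3 copies also held 1 match to TGANTCA (in 6.75% of all windows). They also held 1 TGACG motif each, a part of the CREB site (17.8%), and neither match overlaps the capitals. TGANTCA is looser than the AP-1 site, which has G or C as its middle base. The match read tgaatca in all 3 copies, with A in the middle, so it is not that site. The copies held no match to the TATAAA box (12.4%) or to the NF-kappaB site (7.25%). A match is a description of the letters and does not show binding.

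Bcl2a1d was at 134 and 127 FPKM in wild-type libraries against 89.2 and 123 FPKM in those of the knockout (replicate 1 first). Bcl2a1b was at 37.0 and 32.3 FPKM in wild-type libraries against 22.7 and 34.9 FPKM in the knockout, and Bcl2a1a at 88.0 and 81.8 FPKM and at 58.4 and 77.0 FPKM. For all 3 copies knockout replicate 1 was the lowest library by a wide margin, at 68.3% (Bcl2a1d), 65.4% (Bcl2a1b) and 68.8% (Bcl2a1a) of the wild-type mean, while knockout replicate 2 was at 93.9%, 101% and 90.7%. Of all 24535 rows tested, 8200 had knockout replicate 1 as their lowest library. The copies may share reads, so their agreement does not count as 3 separate observations. The groups overlapped for Bcl2a1b and did not for Bcl2a1d and Bcl2a1a. The log2 changes were -0.32 (SE 0.17) for Bcl2a1d, -0.29 (SE 0.21) for Bcl2a1b and -0.33 (SE 0.15) for Bcl2a1a, with limma adjusted p of 1, 1 and 0.991. Without knockout replicate 1 they were -0.090, 0.016 and -0.14, so the size of the difference and, for Bcl2a1b, its direction rested on that library.

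Each copy made up about the same share of their sum in every library. Bcl2a1d made up 51.8% and 52.7% of the 3 copies in wild type and 52.4% and 52.3% in the knockout, Bcl2a1a 33.9% and 33.9% and then 34.3% and 32.8%, and Bcl2a1b 14.3% and 13.4% and then 13.3% and 14.9%. The sum itself was 259 and 241 FPKM in the wild-type pair against 170 and 235 FPKM in the knockout, with means of 250 ± 12.9 and 202 ± 45.5 FPKM (SD, n = 2 each) and no overlap. The copies may share reads, and how reads with several matches were assigned is not given in the sources used here, so the value of a single copy is uncertain and the sum is given beside it. Bcl2a1c, a copy 25122.3 kb further along chromosome 9 (114330135 to 114330578), had 0.354 and 0.118 FPKM in wild-type libraries against 0 and 0.124 FPKM in the knockout, which corresponds to 3, 1, 0 and 1 fragments.

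**Figure D3:**
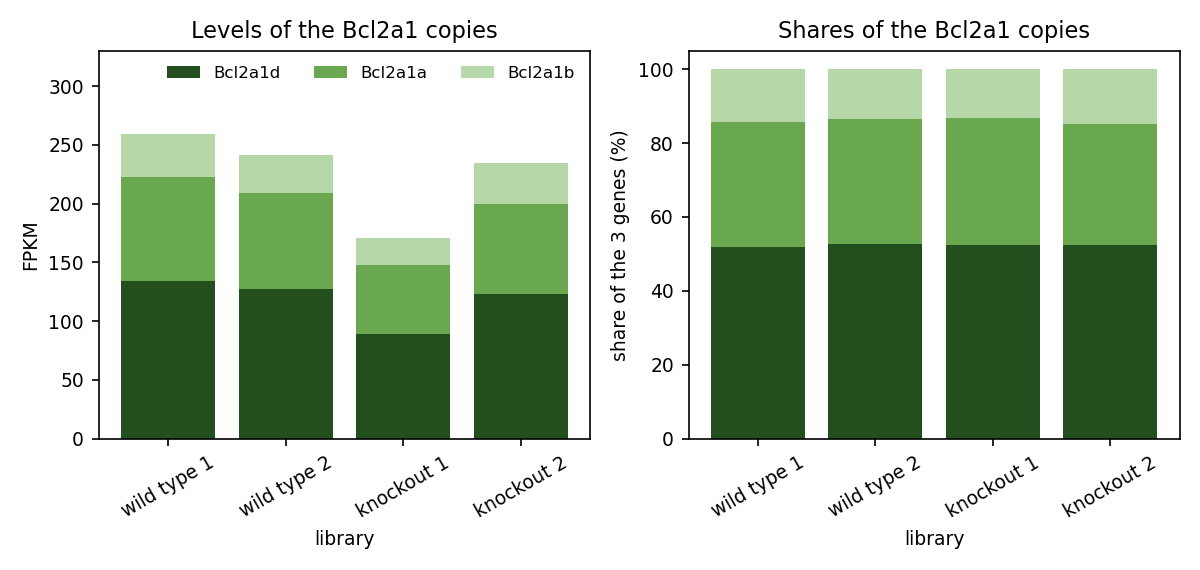
Stacked bars of the Bcl2a1d, Bcl2a1a and Bcl2a1b levels in FPKM (left) and of their shares in percent (right) in each library. Knockout replicate 1 has the lowest bar on the left at 170 FPKM, while the shares on the right differ by at most a few percentage points.

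Markers of other cells also differed between libraries, in part in both knockout libraries and most in knockout replicate 1. Knockout replicate 1 was the highest library for all 16 neutrophil markers and for 10 of the 11 tested markers of mast cells, basophils and eosinophils. The sum of the latter was 110 and 127 FPKM in the wild-type pair against 269 and 142 FPKM in the knockout. All 16 and all 11 had a higher fitted level in the knockout, and 0 passed at an adjusted p of 0.05. Of the 16, 7 were higher in both knockout libraries without overlap, and of the 11, 8 were. Among all rows tested, 13.2% were. The eosinophil granule gene Prg2 was at 24.9 and 24.4 FPKM and at 98.2 and 38.5 FPKM. The sum of 12 macrophage markers was 2551 and 2530 FPKM in wild-type libraries against 1993 and 2219 FPKM in the knockout. Most of it was Lyz2, at 1907 and 1935 FPKM and at 1373 and 1586 FPKM, whereas 6 of the 12 markers had a higher and 6 a lower mean in the knockout. The complement genes C1qa (9.63 and 9.93 FPKM, then 17.2 and 14.6 FPKM), C1qb and C1qc were higher in both knockout libraries, with an unadjusted p below 0.05 but limma adjusted p of 0.537 to 0.777. B cell markers summed to 423 and 631 FPKM and to 700 and 767 FPKM, much of it Igkc (125 and 181 FPKM, then 278 and 380 FPKM). Of the 13, 8 overlapped between genotypes. Ighd, Igkc and Cd22 were higher in both knockout libraries, and Rag1 and Vpreb1 were lower in both. Of all rows tested, 30.9% showed no overlap. Of 12 T and NK cell markers only 3 reached the filter of 1 FPKM, with Gzma at 0 in 3 of the 4 libraries. None of the 62046 deposited rows was at 0 in all 4 libraries, so a marker's having a row does not show that its cell type was present. Progenitor markers summed to 167 and 116 FPKM in the wild-type pair against 189 and 144 FPKM in the knockout. Much of this sum was Ly6a (113 and 55.75 FPKM, then 104 and 83.6 FPKM), which overlapped. All 10 progenitor markers had a higher fitted level in the knockout, 4 of them without overlap, and 0 passed at an adjusted p of 0.05. Erythroid markers summed to 21.4 and 24.4 FPKM and 19.5 and 20.5 FPKM. Of the 5 tested, 1 was higher and 4 lower in the knockout, and 2 were lower without overlap, against 17.7% of all rows. The part of these cells in the Bcl2a1 values was not tested. Knockout replicate 1 was the highest or the lowest of the 4 libraries for 7 of the 10 genes (70%), and for 57.9% of all rows tested.

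The effectors were present at intermediate levels, with Bak1 above Bax in every library. Bak1 (ENSMUSG00000057789, chromosome 17, 27019810 to 27029009, minus strand) was at 33.1 and 36.6 FPKM in wild-type libraries against 40.1 and 34.7 FPKM in the knockout. Bax (ENSMUSG00000003873, chromosome 7, 45461697 to 45466898, minus strand) was at 19.1 and 21.1 FPKM and at 23.5 and 19.9 FPKM. In both genes the libraries had the same order, with knockout replicate 1 highest and wild-type replicate 1 lowest, and the groups overlapped. The log2 changes were 0.097 (SE 0.12) for Bak1 and 0.10 (SE 0.13) for Bax, and without knockout replicate 1 they were -0.0029 and -0.011.

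The 3 BH3-only genes differed in their spread. Bcl2l11, which encodes BIM (ENSMUSG00000027381, chromosome 2, 128126038 to 128162547, plus strand), was at 9.89 and 9.82 FPKM in the wild-type pair against 10.5 and 10.7 FPKM in the knockout. Each knockout value lay above each wild-type value, by little, and the means were 9.86 ± 0.0464 and 10.6 ± 0.145 FPKM (SD, n = 2 each). The log2 change was 0.095 (SE 0.11, limma unadjusted p = 0.429, adjusted p = 1), where the SE comes from limma's moderated variance and exceeds the spread of this gene's own libraries. Leaving out any library kept it between 0.082 and 0.11.

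Bid, which carries the death signal from caspase-8 to mitochondria (ENSMUSG00000004446, chromosome 6, 120891930 to 120916853, minus strand), was at 13.4 and 15.3 FPKM in wild-type libraries against 13.7 and 13.8 FPKM in the knockout. The knockout libraries lay between the wild-type ones, with a log2 change of -0.052 (SE 0.12). Bbc3, the gene of PUMA and a textbook p53 target (ENSMUSG00000002083, chromosome 7, 16308393 to 16318205, plus strand), was at 5.41 and 6.39 FPKM in the wild-type pair against 8.71 and 4.49 FPKM in the knockout. It was the most variable of the 10 genes, with the highest library at 1.94 times the lowest, and both extremes were knockout libraries. Its log2 change was 0.086 (SE 0.27), which became -0.33 with knockout replicate 1 left out and 0.50 with knockout replicate 2 left out.

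Summed by class, the 5 pro-survival genes stood at 465 and 418 FPKM in wild-type libraries against 407 and 411 FPKM in the knockout, without overlap. Without Bcl2a1b and Bcl2a1d the sums were 294 and 259 FPKM and 295 and 254 FPKM, which overlapped. The effectors summed to 52.2 and 57.7 FPKM in the wild-type pair against 63.5 and 54.6 FPKM in the knockout. The 3 BH3-only genes among the 10 summed to 28.7 and 31.5 FPKM and to 32.9 and 29.0 FPKM. Left out of this sum are Pmaip1 (16.09 and 15.01 FPKM, then 14.82 and 17.05 FPKM), Bmf (15.06 and 13.42 FPKM, then 11.55 and 9.807 FPKM) and Bad. Bmf and Bad were lower in both knockout libraries, and Pmaip1 overlapped. The pro-survival sum leaves out Bcl2a1a and Bcl2l2. These sums and the ratios below thus hold for the 10 genes alone. The ratio of effectors to pro-survival genes was 0.112 and 0.138 in wild type and 0.156 and 0.133 in the knockout, so it was highest in knockout replicate 1 and lowest in wild-type replicate 1, and the groups overlapped (0.125 ± 0.0182 and 0.145 ± 0.0165, SD, n = 2 each). The BH3-only ratio was 0.0616 and 0.0753 in wild type and 0.0810 and 0.0704 in the knockout. The often quoted ratio of Bax to Bcl2 was 7.35 and 7.74 in wild type and 9.81 and 6.78 in the knockout, also with overlap. These ratios were not tested, and the smallest two-sided p that an exact permutation test could give here is 0.33.

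**Figure D4:**
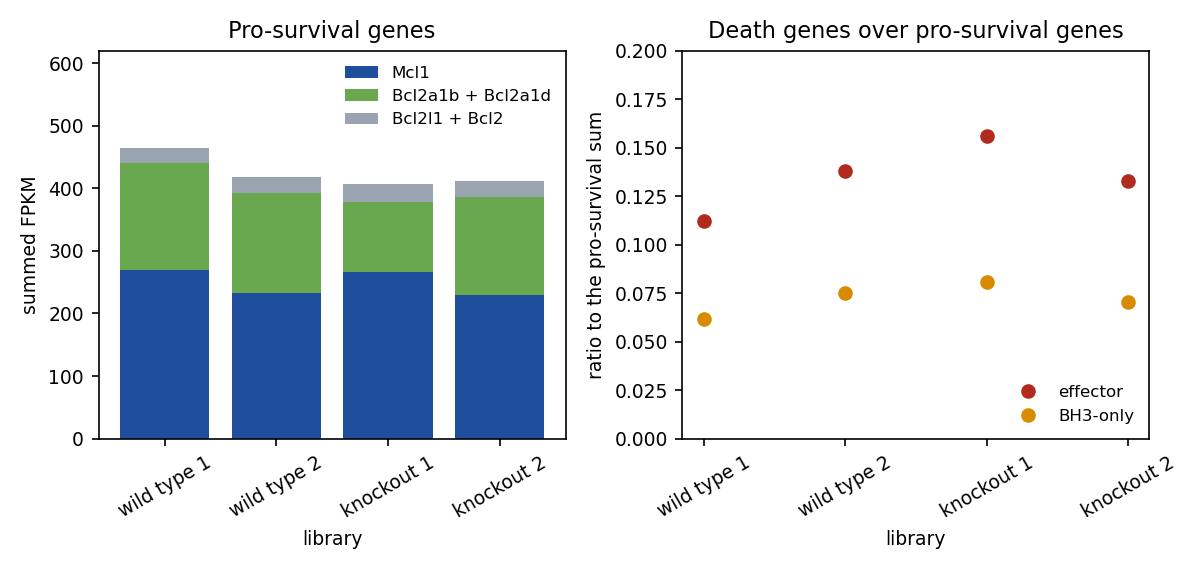
Left, summed FPKM of the pro-survival genes in each library, split into Mcl1, the Bcl2a1b and Bcl2a1d pair, and Bcl2l1 with Bcl2. Right, the ratio of effector and BH3-only sums to the pro-survival sum, where the effector ratio runs from 0.112 in wild-type replicate 1 to 0.156 in knockout replicate 1.

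Of 16 further BCL2 family genes in the table, 10 reached the mean of 1 FPKM that the test required, and 0 of them passed (4 higher and 6 lower in the knockout, median log2 change -0.051, and 0.0036 without wild-type replicate 1). The BH3-only gene Bmf had the smallest p, at 15.1 and 13.4 FPKM in wild-type libraries against 11.5 and 9.81 FPKM in the knockout (log2 change -0.39, SE 0.13, limma unadjusted p = 0.0275, adjusted p = 0.857). All its knockout values lay under its wild-type values, and without any single library the change stayed between -0.49 and -0.28. Bad, another BH3-only gene, was at 3.34 and 3.50 FPKM and at 2.87 and 2.75 FPKM, also without overlap (adjusted p = 1). Bnip3l, a mitophagy receptor, was the highest of these genes after Bcl2a1a, at 60.5 and 55.3 FPKM in the wild-type pair against 59.4 and 54.2 FPKM in the knockout, which overlapped. The 6 genes under the filter, Bcl2a1c, Bcl2l10, Bok, Bik, Bcl2l14 and Bcl2l15, stayed below 1 FPKM in every library, with the effector-like gene Bok at 0.171 to 0.307 FPKM.

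The machinery downstream of mitochondria was measured in 13 genes, all tested, of which 0 passed (10 higher and 3 lower in the knockout, median log2 change 0.066, and 0.027 or 0.093 without knockout replicate 1 or 2). Apaf1, the scaffold of the apoptosome, was at 24.2 and 25.0 FPKM in wild-type libraries against 23.8 and 24.5 FPKM in the knockout. Casp6 had its knockout values above its wild-type values (9.71 and 11.0 FPKM, then 11.6 and 12.8 FPKM, log2 change 0.21, SE 0.13, limma adjusted p = 1), with a change of 0.13 without wild-type replicate 1. Casp2 lay the other way, at 9.93 and 11.6 FPKM in the wild-type pair against 9.28 and 9.81 FPKM in the knockout.

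Of 8 tested genes of the inhibitors of apoptosis, 0 passed (2 higher and 6 lower, median log2 change -0.043, and 0.0072 or -0.14 without knockout replicate 1 or 2). The genes with the smallest p were Naip2 (49.1 and 39.8 FPKM in wild-type libraries against 34.5 and 36.4 FPKM in the knockout, log2 change -0.31, SE 0.13, adjusted p = 0.970) and Naip5 (14.4 and 12.5 FPKM, then 11.2 and 10.9 FPKM, log2 change -0.25, SE 0.12), which are known in mice as sensors of bacterial proteins in the inflammasome more than as caspase inhibitors. Without wild-type replicate 1 both changes were -0.16. These and Naip6 are similar copies and may share reads. Birc3, the cellular inhibitor cIAP2, overlapped between genotypes at 45.8 and 41.2 FPKM and at 43.7 and 44.3 FPKM.

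The receptor pathway of apoptosis and necroptosis had 13 tested genes, of which 0 passed (10 higher and 3 lower, median log2 change 0.038, and 0.064 or -0.0057 without knockout replicate 1 or 2). Casp8, which cleaves BID, was at 54.1 and 55.6 FPKM in the wild-type pair against 50.6 and 57.3 FPKM in the knockout, and the TNF receptor gene Tnfrsf1a at 48.0 and 47.9 FPKM and 51.9 and 44.9 FPKM. In both, the knockout libraries enclosed the wild-type ones. Ripk3, the kinase of necroptosis, had the smallest p, at 15.8 and 15.7 FPKM and at 19.6 and 16.3 FPKM (log2 change 0.17, SE 0.13, adjusted p = 1). Leaving out knockout replicate 1 gave 0.047 and leaving out knockout replicate 2 gave 0.30.

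The p53 list holds the p53 gene, a relative of it, regulators of p53 and genes other than Bbc3 that p53 is known to induce. It is thus not a list of p53 targets alone. It had 15 tested genes and 0 passed (8 higher and 7 lower, median log2 change 0.0053, and -0.048 or 0.13 without knockout replicate 1 or 2). Trp53, the p53 gene itself, was at 15.9 and 18.6 FPKM in wild-type libraries against 18.9 and 18.4 FPKM in the knockout. Cdkn1a, which encodes the cell cycle inhibitor p21, was at 106 and 86.9 FPKM and at 110 and 83.7 FPKM, so that, as with Mcl1, the library numbered 1 was the higher in both genotypes. Perp, a membrane protein gene, had the smallest p, at 1.32 and 1.07 FPKM in the wild-type pair against 2.75 and 1.52 FPKM in the knockout (log2 change 0.49, SE 0.23, adjusted p = 0.994). Its change was 0.20 without knockout replicate 1, 0.77 without knockout replicate 2 and 0.74 with a pseudocount of 0.1.

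Among 24 genes that regulate family members or bind them, 0 passed, 12 were higher and 12 lower, and the median log2 change was 0.00097, between -0.015 and 0.031 when a library was left out. Trib3, a pseudokinase gene of the stress response, had the smallest p of all genes in these lists, at 36.7 and 25.4 FPKM in wild-type libraries against 20.2 and 14.7 FPKM in the knockout (log2 change -0.79, SE 0.22, limma unadjusted p = 0.0112, adjusted p = 0.748). Ddit3, which encodes the stress factor CHOP, a known inducer of Bcl2l11, overlapped at 8.85 and 5.93 FPKM and at 6.23 and 4.63 FPKM. Vdac3, a channel of the outer mitochondrial membrane, was at 22.2 and 23.5 FPKM and at 16.7 and 20.5 FPKM (log2 change -0.29, SE 0.13, adjusted p = 0.994), and leaving out either knockout library, replicate 1 or 2, gave -0.15 or -0.43. The kinase gene Akt1, whose product inactivates BAD, was at 55.1 and 61.2 FPKM and at 63.6 and 58.7 FPKM. Over the 83 tested genes of the 6 lists, 46 were higher and 37 lower, and 2 of the 83 (Bmf and Trib3) had an unadjusted p below 0.05, against 5.36% of all rows.

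**Figure D5:**
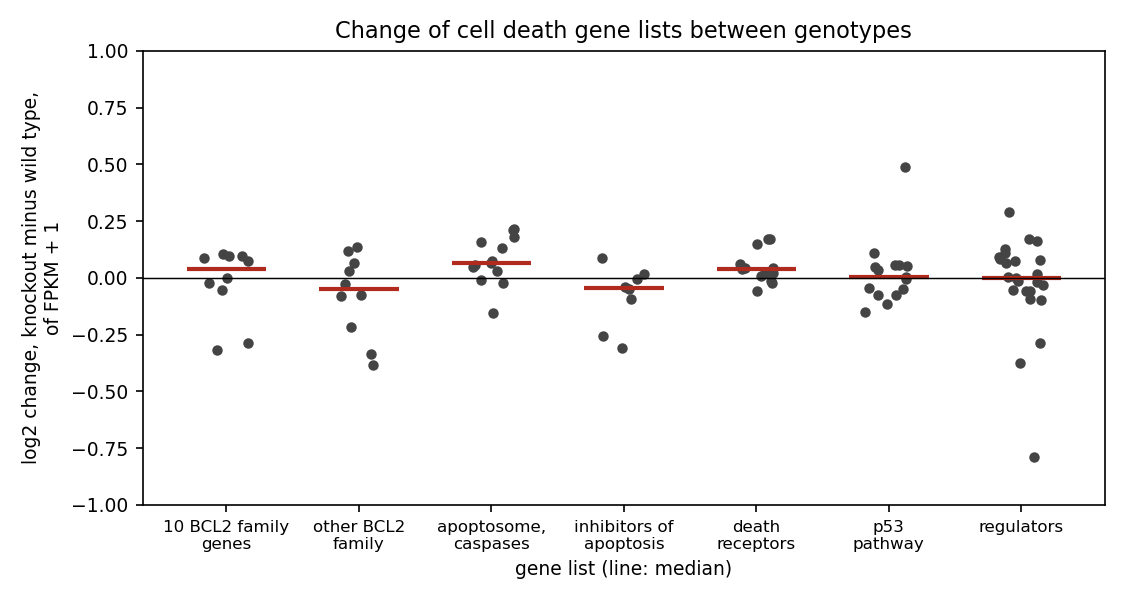
Log2 change of FPKM + 1, knockout minus wild type (y axis), with 1 point per tested gene, for the 10 BCL2 family genes and 6 other lists (x axis), and a line at each median. The medians lie between -0.051 and 0.066, and the lowest point is Trib3 at -0.79.

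Several rows of the table lie inside or across the 10 genes, and since the handling of strand is not given in the sources used here, reads could be counted for either. Noncoding rows without a symbol overlapped 5 of the 10 genes, 17 rows in all, of which 14 were tested and 0 passed (6 higher and 8 lower). Bcl2 held 6 of them, and 4 of these had a higher mean than Bcl2 itself. The highest, NONMMUG047209.1 on the opposite strand (106684473 to 106684962), was at 7.78 and 10.8 FPKM in the wild-type pair against 8.37 and 14.7 FPKM in the knockout, against 2.39 to 2.94 FPKM for Bcl2. Bcl2l1 held 5, with NONMMUG067632.1 on the opposite strand highest (17.6 and 14.5 FPKM, then 13.4 and 14.1 FPKM), below the 21.8 to 26.8 FPKM of Bcl2l1. Within Bcl2l11 the row NONMMUG024578.2 was at 3.68 and 4.40 FPKM and at 3.67 and 4.07 FPKM, and across Bcl2a1d the row NONMMUG043542.2 was at 2.09 and 1.91 FPKM and at 1.53 and 2.16 FPKM. The 1 noncoding row that overlapped Bbc3 stayed under the filter. Another family gene, Bcl2l13, lies on the opposite strand and shares 913 bases with Bid (8.34 and 7.71 FPKM, then 7.39 and 7.67 FPKM). Bak1 lies whole within the span of Ggnbp1 on the opposite strand (1.05 and 1.07 FPKM, then 0.845 and 0.817 FPKM), and Bcl2a1b shares 8449 bases with Gm29094 on its own strand, a row at 0.237 FPKM or less. Gm17812 lies within Bid on the opposite strand (9.89 and 6.59 FPKM, then 9.40 and 7.97 FPKM) and Mir3473f within Bcl2. No row overlapped Mcl1 or Bax.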

How the data were processed

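The authors deposited 1 table of FPKM values for 62046 rows, 21500 with a symbol and 40546 noncoding rows without one. The submitters' processing notes name Bowtie 0.12.2 and mm9. No source used here states the counting tool, the handling of strand or what was done with reads of several matches. The coordinates were compared with RefSeq on GRCm38: 7 of the 10 genes and 76.7% of 18848 matched rows had both ends within 1000 bases, so coordinates are read as GRCm38. Libraries were grouped by the genotype in their titles.

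The test was limma (3.58.1, R 4.3.3, eBayes with a trend, no block) on log2(FPKM + 1) of every row whose mean reached 1 FPKM, and p-values were adjusted over all 24535 rows by the method of Benjamini and Hochberg. The code was tested on simulated data. Values after ± are SDs. The depth was recovered from noncoding rows spanning 1000 to 3000 bases, in which FPKM times length fell within 0.05 of a whole multiple of 1 step for 83.2% to 84.3% of low values. Exon lengths are not given, so no count model was used.

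The genes and lists were chosen with earlier results of these data known. Beside the 10 genes, the text names from each list the 3 genes with the smallest p and the 2 with the highest mean (not each with values), the 2 highest markers of a cell type, the highest tested noncoding row per gene, Csf1r and the targeted gene. Genes named beyond this (Gzma, the C1q genes, Rag1, Vpreb1, Ighd, Cd22, Pmaip1, Bcl2l2, Bcl2a1c, the family genes under the filter and rows with a symbol that overlap one of the 10) were chosen after their values were seen. The family gene Hrk was not used here. Mcpt4 and Siglecf were planned as markers of mast cells, basophils and eosinophils but had no row under these symbols. Some genes that this rule picks are not reported here. Of 2 rows with the symbol Itgam the higher was used. Promoters are RefSeq's, aligned with Biopython 1.88. Alternatives were another pseudocount, other filters, scalings and variance settings, a replicate block, rows with a symbol only, an adjusted p of 0.1, and each library left out.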

Additional observations from a re-analysis of the deposited data

How the results depend on the processing

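None of the 10 genes passed under any of the alternatives run (smallest adjusted p = 0.681), nor did any gene of the 6 lists or any overlapping noncoding row, also at an adjusted p of 0.1. Over all rows, the 3 calls became 0 without a filter and with a filter of 0.1 FPKM, 6 with the replicate block, and 0 to 21 when a library was left out (12 without wild-type replicate 1, 21 without wild-type replicate 2, 0 without either knockout library). The cause was not tested. Filters, variance settings, the replicate block and the restriction to rows with a symbol leave the log2 change itself as it is by construction, so only the pseudocount, the scalings and a left-out library could turn it. Bcl2 turned to 0.0056 with median-of-ratios scaling and 0.012 with quantile normalization, and every other turn came from leaving out a library. Over those fits the log2 change ran from -0.11 to 0.11 for Bcl2, from -0.067 to 0.22 for Bcl2l1, from -0.13 to 0.086 for Mcl1, from -0.59 to 0.016 for Bcl2a1b, from -0.011 to 0.22 for Bax, from -0.0029 to 0.20 for Bak1, from -0.14 to 0.038 for Bid and from -0.33 to 0.50 for Bbc3. Bcl2a1d (-0.55 to -0.090) and Bcl2l11 (0.082 to 0.11) kept their sign in them. The Bax to Bcl2 ratio differed by 0.748 between genotypes, and by -0.770 without knockout replicate 1. The labels give same-numbered libraries only a number in common. The correlation of their deviations over 24535 rows was 0.051. With 2 pairs it cannot show whether they shared a culture or day. With the replicate block 0 of the 10 genes passed. Depth limits statements on Bcl2a1c, which rests on 0 to 3 fragments a library.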
